A study of Mus musculus with 8 samples.

Results

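The genes described are 9 haematopoietic niche factors and their regulators: the ligands Cxcl12, Kitl, Il7, Csf1 and Angpt1, the leptin receptor gene Lepr, and the transcription factor genes Foxc1, Ebf1 and Ebf3. The rule names them and uses no value, and all 9 were matched by gene identifier among the 49315 genes counted. RNA-seq was performed on 7 populations sorted from bone marrow preparations of wild-type mice, and on 1 library of input bone marrow cells. The labels give the mice as C57BL/6J and 6 weeks old, while the study's methods name C57BL/6JJcl mice. By those methods, the femurs, tibias and ilium were crushed, and the washed bone fragments were digested with collagenase. No treatment is named for any library, and the clusters take their numbers from single-cell clusters of a mesenchymal stem cell fraction. There was 1 library for each population. No test between populations is therefore possible, and the 95% intervals given below cover counting error only.

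All sorted populations were gated as negative for CD31, CD45 and Ter119. The gates of the study were CD24-, Sca-1+ and CD39+ for cluster 1, and Ly-6C-, CD39- and CD24- for cluster 2. Cluster 3 was Ly-6C+, CD24+ and negative for CD39 and CD54, and cluster 4 was Ly-6C-, CD54+ and CD24-. Cluster 5 was CD54+, CD121b- and negative for CD24 and Ly-6C. Cluster 6 was CD24+, Sca-1- and CD39-, and cluster 7 was CD54-, Sca-1+ and negative for CD24 and Ly-6C. A gate defined by a few surface antigens can hold several cell types, and in such bulk libraries fewer cells of a type and less RNA per cell cannot be told apart.

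Blood stem cells and lymphoid progenitors are kept in the marrow by stromal cells that release or display cytokines. Reticular stromal cells that lie around the sinusoids and carry the leptin receptor are the best-known source. CXCL12 retains cells through its receptor CXCR4, stem cell factor (the Kitl product) acts through KIT, and IL-7, M-CSF (the Csf1 product) and angiopoietin-1 act through IL7R with the common gamma chain, CSF1R and TIE2. Foxc1, Ebf1 and Ebf3 encode DNA-binding proteins that are required in these stromal cells for the marrow niche.

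The depth of the libraries was unequal. From cluster 1 to cluster 7, the total count was 24205863, 25349917, 27102715, 32549319, 12833648, 31669132 and 33238133, and the input had 20162876. Levels are given as RPKM, the read count per kilobase of exon, scaled to the total count of the library. Much of the cluster 5 library came from Lars2, Rn18s-rs5 and mmu-mir-689-2, which together held 34.8% of its counts, beside 10.4% in cluster 2 and 0.274% in cluster 7. Scaling by TMM, which sets the bulk of the genes to equal levels, raised every value on the log2 scale by 0.44 in cluster 5 and by 0.37 in cluster 6. It lowered them by 0.68 in the input, changed them by -0.14 in cluster 1, and moved those of the other 4 libraries by less than 0.1. TMM values are given where they change the highest sorted library of a member, and for some other orders; all TMM values of the 9 genes are in the plot of their levels. Statements that libraries differ by less than counting error, or could not be separated, refer to values scaled by total count.

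RNA of other cells was present in every library. S100a8, a neutrophil gene, had RPKM 3132 to 7878 in the sorted libraries and 10797 in the input, although CD45+ cells had been gated out. Ptprc, which encodes CD45, had RPKM 1.69 in cluster 3 to 9.26 in cluster 7 and 13.5 in the input. The 6 erythroid markers summed to RPKM 68504 in cluster 5 and to 1591 in cluster 6, with Hba-a1 the most abundant. The transcripts of the sorting antigens followed the gates in part. Cd24a was highest in cluster 6 (RPKM 137), but its RPKM of 126 in the CD24- cluster 2 exceeded the 49.9 of the CD24+ cluster 3. Ly6a, which encodes Sca-1, was lowest in the Sca-1- cluster 6 (RPKM 4.98 against 931 in cluster 3). Icam1, which encodes CD54, was highest in the CD54+ cluster 4 (RPKM 237), whereas the CD54- cluster 7 had 150 and the CD54+ cluster 5 had 44.5. In the input, 67.8% of 858 olfactory receptor genes, which stromal and blood cells are not known to use, reached 3 counts or more; the share was 2.10% in cluster 6 and 28.0% in cluster 5. Their 90th percentile in the input was RPKM 1.88, which is the background to hold beside low values there. The part of these RNAs in the results was not tested.

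Markers of the stromal types differed between the libraries. Of 11 markers of Lepr-positive stromal cells, 9 passed RPKM 2 in a sorted library, and their sum was highest in cluster 7 (569) and cluster 4 (536) and lowest in cluster 2 (242). Igfbp5 and Hp made up most of the sum in every library. Hp was highest in the input (RPKM 318), with 248 in cluster 7 and 198 in cluster 4, so the order of these 2 sums rests on Hp. Adipoq was highest in cluster 4 (RPKM 29.6 against 6.77 in cluster 5, the next), whereas Cspg4 was highest in cluster 6 (43.0) and cluster 2 (39.2). The 6 markers of Sca-1-positive fibroblasts, reached a sum of 8329 in cluster 4 and 8061 in cluster 1, while cluster 6 had 392. Gsn made most of these sums (RPKM 7444 in cluster 4), and of the other 5 markers, Cd34, Pi16, Dpt and Clec3b were highest in cluster 1 and Ly6a in cluster 3. The 7 osteoblast markers reached 38766 in cluster 6, where Col1a1 led (RPKM 15952), and 31533 in cluster 3, where Bglap led (14020), while cluster 4 had 3117. Ibsp, Alpl, Dmp1 and Sp7 were highest in cluster 6 and, among the sorted libraries, lowest in cluster 1. The input lay below cluster 1 for each of them. The 3 chondrocyte markers, led by Col2a1, were high in cluster 6 (11053), cluster 2 (9058) and cluster 4 (3193), against 189 to 255 in the other sorted libraries and 141 in the input. The 6 markers of pericytes and smooth muscle summed to RPKM 7.91 in cluster 6 and 100.4 in cluster 7, led by Acta2 (4.68 and 84.7), whereas Myh11, Tagln and Mcam were highest in cluster 1 and Rgs5 in cluster 3. The 7 endothelial markers summed to RPKM 3.70 in cluster 6 and 17.8 in cluster 5; Pecam1 ranged from 1.31 to 3.84, Cdh5 from 0.21 to 2.48 and Esam from 0.67 to 5.79. No list had a sum of 0 in any library.

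**Figure D1:**
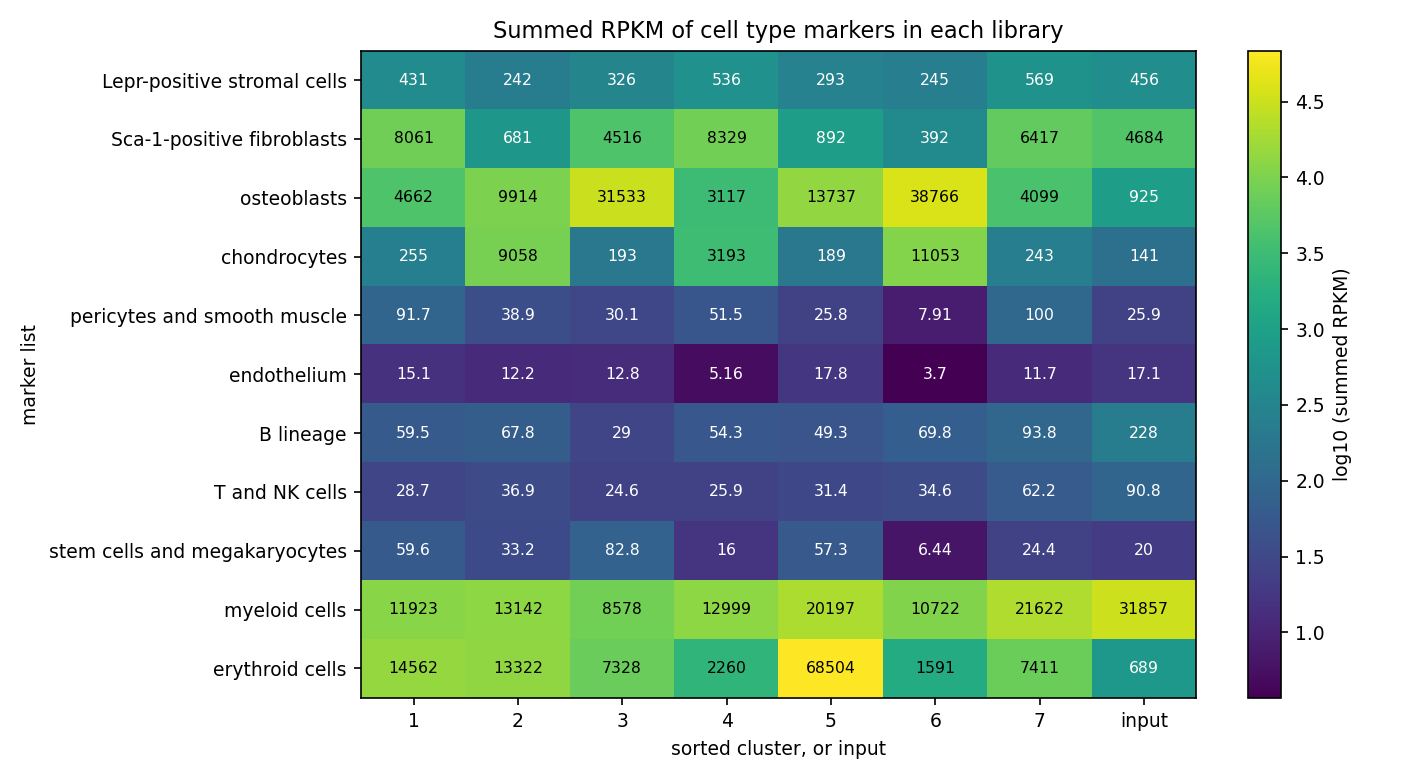
Summed RPKM of 11 fixed marker lists (rows) in the 7 sorted libraries and the input (columns), with the colour on a log10 scale and the sum printed in each cell. Osteoblast and chondrocyte markers peak in cluster 6, fibroblast markers are lowest there (392), and erythroid markers peak in cluster 5 (68504).

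Cxcl12 was the most abundant of the 9 genes at its peak and varied most between libraries in RPKM. The gene (ENSMUSG00000061353) lies on the plus strand at chr6:117168535-117181367 in GRCm38 coordinates. Its RPKM from cluster 1 to cluster 7 was 33.5, 11.7, 11.7, 139 (95% interval 138 to 141), 42.0, 5.04 and 48.5, and the input had 27.0. Cluster 4 thus stood apart from all other libraries, clusters 7, 5 and 1 formed an intermediate range, and clusters 2 and 3 differed by less than counting error. The ratio of cluster 4 to cluster 6 was 27.6 (26.1 to 29.2), or 22.0 with TMM. With TMM the library next to cluster 4 became cluster 5, at a ratio of 2.52. Cxcl12 ranked place 389 of all genes in cluster 4 and place 5589 in cluster 6.

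Csf1 was the other gene of the set with a single high library. Csf1 (ENSMUSG00000014599) lies on the minus strand at chr3:107741048-107760469. Its RPKM from cluster 1 to cluster 7 was 35.8, 5.66, 74.7 (73.3 to 76.2), 35.3, 12.5, 6.61 and 25.1, and the input had 18.0. Cluster 3 was 2.09 times cluster 1 (2.01 to 2.16), clusters 1 and 4 differed by less than counting error by total count (32.5 and 36.1 with TMM), and clusters 2 and 6 were lowest. The highest over the lowest library was 13.2 (interval from 12.3), cluster 3 over cluster 2.

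Since these genes peaked in different libraries, their promoter sequences are shown side by side. RefSeq promoters of GRCm38.p6 were matched for 7 of the 9 genes. The 250 bases before the annotated start are printed 5′ to 3′ on the strand of the gene, at chr6:117168285-117168534 (plus) for Cxcl12 and chr3:107760470-107760719 (minus) for Csf1. Capitals mark the GC boxes in Cxcl12, and in Csf1 the overlapping matches to the NF-kB letters and the EBF core.
Cxcl12: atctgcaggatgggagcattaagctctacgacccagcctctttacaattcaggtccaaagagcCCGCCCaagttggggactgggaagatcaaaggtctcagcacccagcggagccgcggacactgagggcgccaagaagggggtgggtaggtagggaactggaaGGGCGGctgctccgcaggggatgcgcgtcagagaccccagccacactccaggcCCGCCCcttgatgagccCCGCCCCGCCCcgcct
Csf1: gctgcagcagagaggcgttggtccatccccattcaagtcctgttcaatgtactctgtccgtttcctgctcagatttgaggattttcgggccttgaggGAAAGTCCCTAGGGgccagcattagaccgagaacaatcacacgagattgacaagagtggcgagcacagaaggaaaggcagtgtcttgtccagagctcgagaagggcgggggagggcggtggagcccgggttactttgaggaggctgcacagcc
The letters were searched on both strands and were chosen after the levels were known. The 7 matched members had 9 promoters. A member was counted if any of its promoters matched, whereas the percentages are per promoter. GC boxes (GGGCGG) stood in a promoter of 6 of the 7 members, and in 32.7% of 32851 promoters of the same length. Cxcl12 had 5 of them, 2 of which share a base, between 187 and 6 bases before the start. The NF-kB letters GGGACTTTC stood in 0.289% of all promoters and, among the members, in Csf1 only, 153 to 145 bases before the start. The EBF core CCCNNGGG, found in 11.8% of promoters, overlapped that match in Csf1 at 147 to 140 bases and also stood 21 to 14 bases before the start of Ebf3. The forkhead letters GTAAACA were in none of the members' windows and in 3.17% of all promoters. A match of letters is a description and not a bound site.

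The remaining ligands were expressed at far lower levels. Kitl (ENSMUSG00000019966, chr10:100015630-100100413, plus strand), the gene of stem cell factor, had RPKM 5.36 (4.98 to 5.76), 1.55, 2.71, 4.75, 3.68, 0.98 and 3.72 from cluster 1 to cluster 7, and 1.54 in the input. Clusters 1 and 4 were highest and cluster 6 was lowest, at a ratio of 5.47 between cluster 1 and cluster 6. By total count clusters 5 and 7 differed by less than counting error, as did cluster 2 and the input; the TMM ratios were 0.72 for cluster 7 over cluster 5 and 1.61 for cluster 2 over the input. With TMM, cluster 5 was highest, 1.02 times cluster 4, and the input (0.96) lay below cluster 6 (1.26).

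Angpt1 (ENSMUSG00000022309, chr15:42424727-42676977, minus strand) encodes the activating ligand of TIE2. In the same order its RPKM was 4.61, 1.45, 1.25, 3.57, 2.23, 0.90 and 4.97, and the input had 5.83. Clusters 7 and 1 were highest among the sorted libraries and did not differ beyond counting error (ratio 1.08, 0.96 to 1.21). Cluster 7 was 5.54 times cluster 6. With TMM the input, at RPKM 3.65, fell below clusters 7, 1 and 4. An unnamed gene on the opposite strand shares 283 bases of exon with it but had at most 12 counts.

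Il7 (ENSMUSG00000040329, chr3:7569994-7613760, minus strand), which supports B and T cell progenitors, stayed below RPKM 2 in every sorted library. From cluster 1 to cluster 7 it had RPKM 1.71, 1.66, 1.24, 1.59, 0.54 (39 counts), 0.27 (48 counts) and 0.86. The input, at RPKM 3.27, was higher than all 7, and exceeded the 90th percentile of the olfactory receptor genes there. Clusters 1, 2 and 4 were neighbours that could not be separated beyond counting error. With TMM cluster 2 was the highest sorted library, 1.03 times the next, and lay below the input (2.05). The unnamed opposite-strand gene that shares 105 bases with Il7 had at most 45 counts, 12.1% of the highest Il7 count. Whether the counting used strand is not given in the sources used here.

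Lepr, the receptor gene that names the stromal cells, was highest in 2 libraries. Lepr (ENSMUSG00000057722, chr4:101717404-101815352, plus strand) had RPKM 3.5, 2.58, 4.55, 10.9, 4.63, 3.27 and 12.4 (11.9 to 12.8) from cluster 1 to cluster 7, and 9.0 in the input. Clusters 7 and 4 lay above the input and the other 5 below it. Cluster 7 was 1.13 times cluster 4 (1.07 to 1.20) and 4.8 times cluster 2, the lowest. Clusters 3 and 5, and clusters 1 and 6, differed by less than counting error. In TMM values the input, at RPKM 5.64, fell below cluster 5, at 6.26.

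Foxc1 showed a pattern unlike the ligands. Foxc1 (ENSMUSG00000050295, chr13:31806691-31810643, plus strand), a forkhead factor gene, had RPKM 14.4, 27.9 (26.9 to 28.9), 21.3, 23.0, 15.1, 22.6 and 21.1 from cluster 1 to cluster 7, and 2.46 in the input (196 counts). All sorted libraries were far above the input, and the highest was 1.94 times the lowest by total count. Clusters 4, 6, 3 and 7 followed each other in that order with no step between neighbours beyond counting error. Across the steps, cluster 4 was 1.09 times cluster 7 (1.04 to 1.15). With TMM cluster 6 was highest (RPKM 29.1), cluster 2 was next (28.0), and the range from cluster 1 widened to 2.23. In TPM, where 3 loci fill most of cluster 5, the range was 7.51 and cluster 5 was the lowest sorted library.

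Ebf1 (ENSMUSG00000057098, chr11:44617317-45008091, plus strand), a factor of B cell commitment that stromal cells also use, had RPKM 14.3, 4.76, 14.0, 8.82, 5.09, 2.79 and 7.46 from cluster 1 to cluster 7, and 11.7 in the input. Clusters 1 and 3 differed by less than counting error by total count, whereas with TMM cluster 3 was highest, 1.10 times cluster 1. Cluster 1 was 5.13 times cluster 6. The order of B lineage markers was mixed. Cd79a, a chain of the B cell receptor, had RPKM 39.9 in cluster 7, 16.7 in cluster 1 and 9.07 in cluster 3. For Cd79b, Pax5 and Rag1, cluster 1 was next to the highest sorted library (RPKM 28.0, 0.93 and 0.37). Each of the 6 markers used was lowest in cluster 3 of the sorted libraries. The summed RPKM of these markers was 59.5 in cluster 1 and 29.0 in cluster 3, against 228 for the input. Their part in the Ebf1 level was not tested.

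Ebf3 (ENSMUSG00000010476, chr7:137193673-137314445, minus strand), the relative of Ebf1 found in reticular stromal cells, was the least abundant of the 9 genes in the input and in every sorted library except cluster 5. In the same order as above its RPKM was 1.36, 0.54, 0.58, 1.17, 0.77, 0.072 (21 counts in cluster 6) and 0.50, and the input had 0.67. Cluster 6 was far below the rest, and clusters 3, 2 and 7 could not be separated in order. The ratio of cluster 1 to cluster 6 was 18.9, with an interval from 12.2. An unnamed opposite-strand gene shares 355 bases with Ebf3 and had at most 11 counts.

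**Figure D2:**
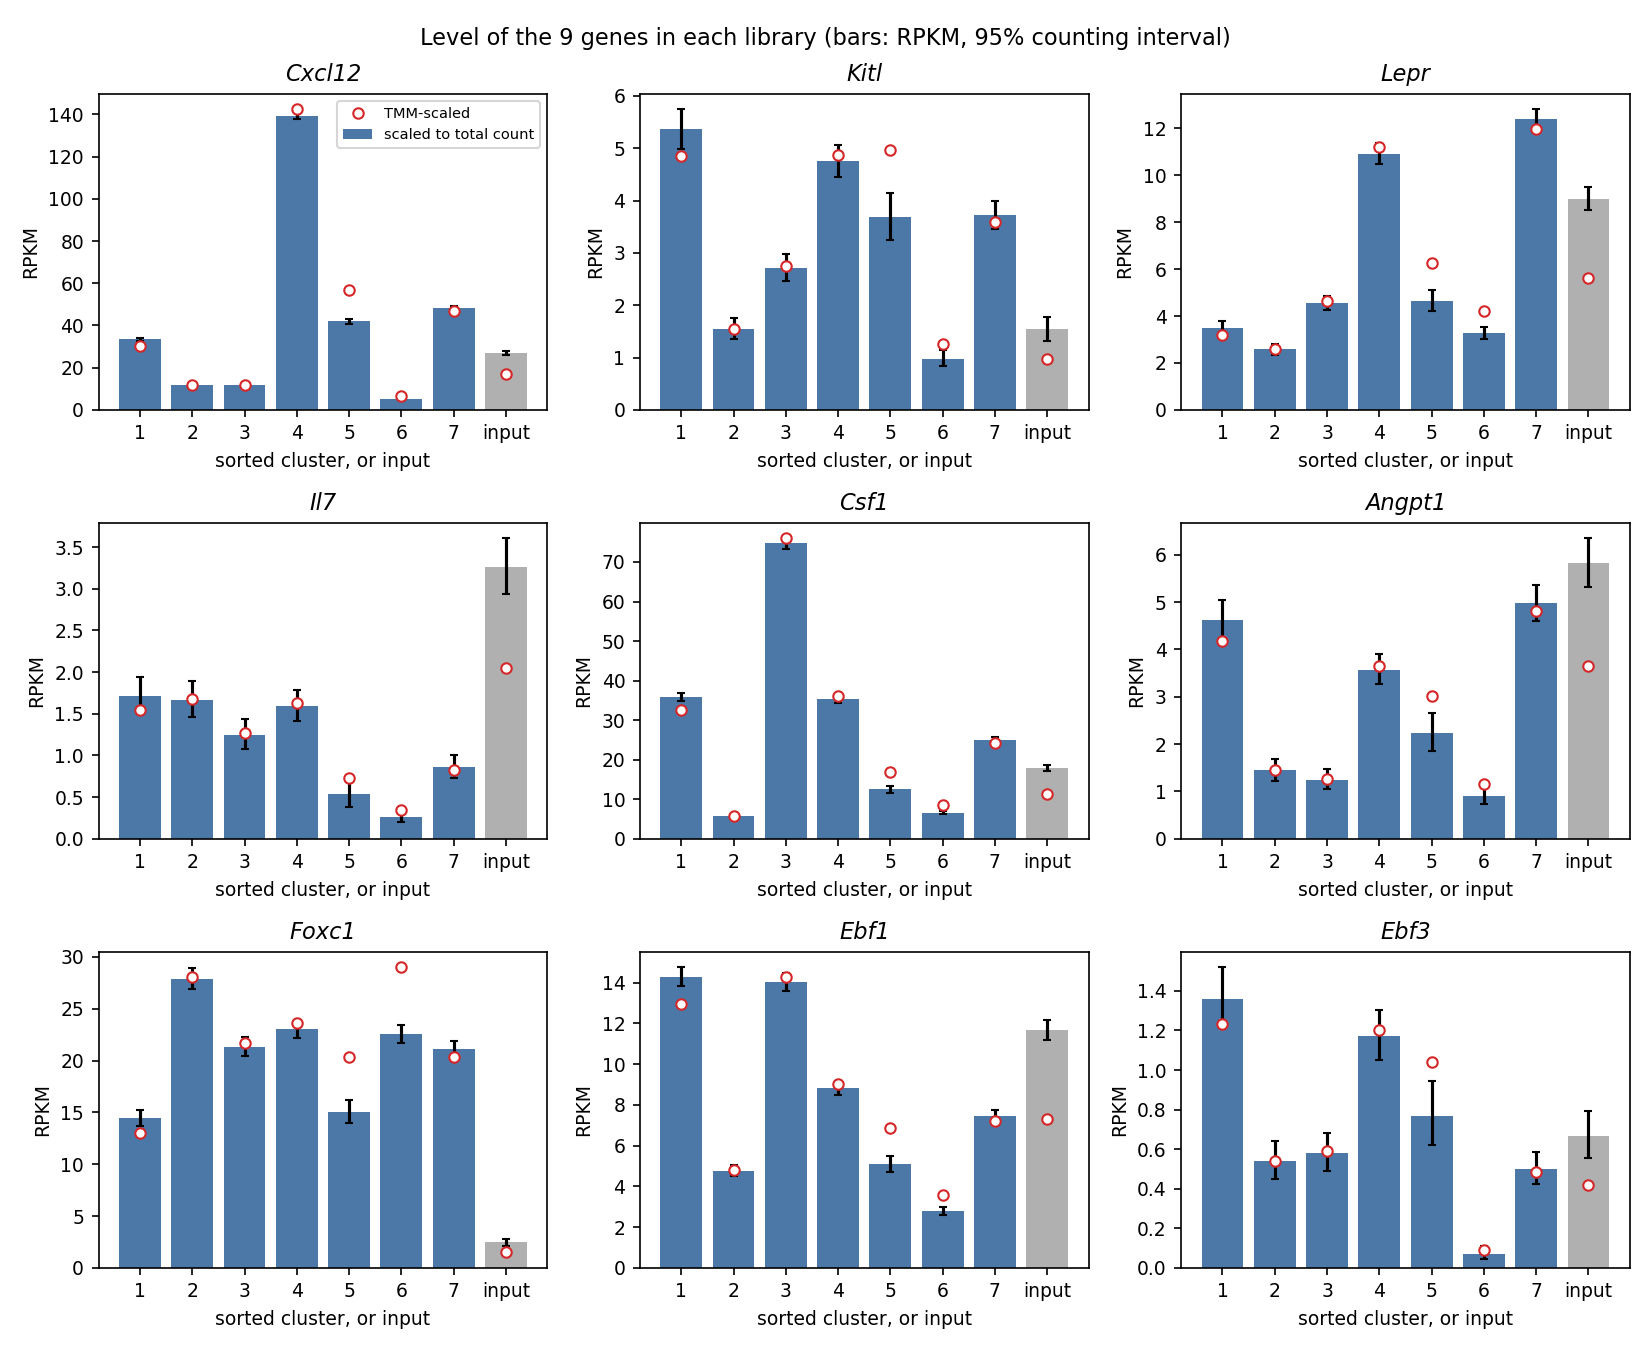
RPKM of each of the 9 genes (y axis, linear from 0) in sorted clusters 1 to 7 (blue bars) and the input (grey bar), with exact Poisson 95% intervals and TMM-scaled values as open circles. Cxcl12 peaks in cluster 4 (139), Csf1 in cluster 3 (74.7), and Foxc1 is lowest in the input (2.46).

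Taking the 9 genes against all genes, 7 had RPKM above 2 in at least 1 sorted library, and Il7 and Ebf3 did not. Of these 7, 6 spanned more than 2-fold between the highest and the lowest sorted library in RPKM + 1, all but Foxc1. Among all 12360 genes past the same filter, 70.6% did so, so this share is near the background. A single library exceeded every other sorted library more than 2-fold for 2 of the 7 genes (Cxcl12 in cluster 4, Csf1 in cluster 3), against 5.4% of all genes. Csf1 was close to that limit: at equal depth only Cxcl12 passed it. The median log2 range in RPKM + 1 was 1.90 over these 7 genes and 1.26 over the 12360 genes.

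Cluster 6, the library with the most osteoblast and chondrocyte marker RNA, was the lowest sorted library for Cxcl12, Kitl, Angpt1 and Ebf1, 4 of the 7 genes past the filter, against 25.5% of all genes. Il7 and Ebf3 were lowest there as well. Lepr and Csf1 were lowest in cluster 2 and Foxc1 in cluster 1. This count was made after the levels had been seen. It was 4 again with TMM, when 17% of all genes were lowest in cluster 6, without the 3 loci in the totals (37.7%) and without the cluster 5 library (40.8%). In TPM it was 2, when 4.07% of genes were lowest there. All 9 members passed the filter in TPM, and the 2 were Cxcl12 and Ebf3. Lars2, Rn18s-rs5 and mmu-mir-689-2 took 78% of all TPM in cluster 5 and 54.6% in cluster 2, which lowers every other gene there. In TPM the lowest sorted library was cluster 2 for Kitl and cluster 5 for Angpt1 and Ebf1.

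Each sorted library was next compared with the input, and all 7 comparisons share that library. The study's methods do not describe the input cells, and the labels give it the same cell type as the sorted libraries, so what the ratios are relative to is known only as far as that. A gene was counted as higher or lower when RPKM exceeded 2 in either library and RPKM + 1 differed by more than 2-fold. In cluster 1, 2 of 8 tested members were higher (Kitl and Foxc1; 5.53% of all genes) and 1 was lower (Lepr; 41.6%). In cluster 2, Foxc1 was higher (7.06%) and 5 of 7 were lower (47.9%), namely Cxcl12, Lepr, Csf1, Angpt1 and Ebf1. In cluster 3, Csf1 and Foxc1 were higher (4.33%), and Cxcl12 and Angpt1 were lower (46.5%). In cluster 4, 3 of 8 were higher (Cxcl12, Kitl and Foxc1; 4.68%) and none was lower, where 45.5% of all genes were. With TMM, 4 members were higher in cluster 4 and also in cluster 7, and none was lower in clusters 1, 2, 4, 5 and 7.

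In cluster 5, Foxc1 was higher (3.21%) and Il7, Angpt1 and Ebf1 were lower (61%). In cluster 6, Foxc1 was higher (3.82%) and the other 6 of the 7 tested members were lower (53.6%). In cluster 7, Foxc1 was higher (3.43%) and Il7 was lower (39.4%). Ebf3 was below the filter in every comparison, and Kitl in those of clusters 2 and 6. Foxc1 was the member above the input in all 7 comparisons by total count, with ratios of RPKM from 5.86 in cluster 1 to 11.3 in cluster 2. Its ratios ran from 8.47 to 18.9 with TMM. By TMM the Kitl ratios were also above 1 in all 7, from 1.31 in cluster 6 to 5.15 in cluster 5. Cxcl12 in cluster 4 was 5.16 times the input (5.0 to 5.33; 8.45 with TMM), Csf1 in cluster 3 was 4.16 times (3.96 to 4.37; 6.75 with TMM) and Kitl in cluster 1 was 3.48 times (2.95 to 4.12; 5.03 with TMM). The input level of Kitl (RPKM 1.54) lay below the 90th percentile of the olfactory receptor genes there, so that last ratio rests on a value within the background of the input. The lower calls depend on the scaling. Over the 7 libraries there were 11 higher and 18 lower calls by total count, and 18 higher and 4 lower calls by TMM. By TMM, 10.1% (cluster 7) to 16.7% (cluster 2) of all genes were higher than the input and 25.9% (cluster 7) to 29.5% (cluster 3) were lower.

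**Figure D3:**
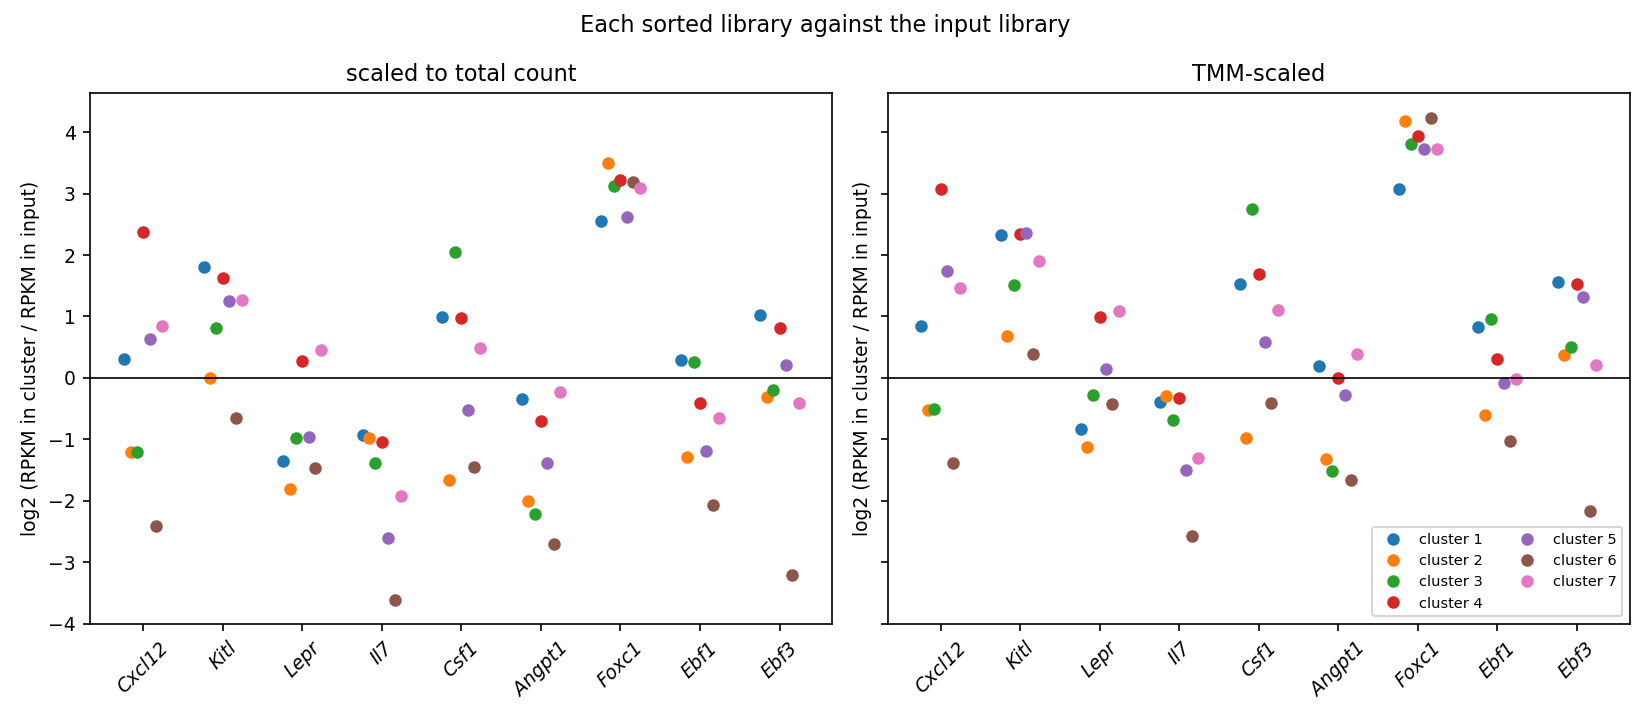
Log2 ratio of RPKM in each sorted library to RPKM in the input (y axis) for the 9 genes (x axis), scaled to the total count on the left and by TMM on the right, with 1 point for each cluster. Foxc1 is above 0 in all 7 clusters on both scales, while 10 of the 63 points cross 0 between the panels, 3 each of Angpt1 and Ebf3 and 1 each of Kitl, Lepr, Csf1 and Ebf1.

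The receptors of the ligands were measured in the same libraries. Of 8 receptor genes fixed for this purpose, 7 passed RPKM 2 and 5 spanned more than 2-fold in RPKM + 1, with a median log2 range of 1.64. For this list and those that follow, the values over all genes are the 70.6% and 1.26 given above. Ackr3, the scavenger receptor that removes CXCL12, had RPKM 89.7, 50.6, 217, 44.9, 17.8, 53.3 and 69.7 from cluster 1 to cluster 7, and 103 in the input. Its highest library, cluster 3, was one of the low libraries for Cxcl12. The ratio of Cxcl12 to Ackr3 in RPKM was 3.10 in cluster 4 and 2.36 in cluster 5, and 0.054 in cluster 3 and 0.095 in cluster 6. Cxcr4, the signalling receptor, ranged from RPKM 3.98 in cluster 4 to 8.27 in cluster 5, with 9.66 in the input, and from 4.08 to 11.2 in the same clusters with TMM.

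Kit had RPKM 1.57 or less in the sorted libraries and 2.30 in the input. The Kitl level exceeded that of Kit 14.2 times in cluster 4 and lay below it in cluster 6 (ratio 0.71) and in the input (0.67). Csf1r, carried by monocytes and macrophages, was highest in cluster 7 (RPKM 15.0) among the sorted libraries and reached 23.1 in the input, as did Il2rg (9.67 and 23.1; with TMM cluster 6, at 9.5, passed cluster 7, at 9.34). Cluster 7 also had the highest Ptprc and Lyz2 of the sorted libraries (RPKM 9.26 and 3738); their part in the receptor levels was not tested. Csf1 exceeded Csf1r 30.0 times in cluster 3 and 1.19 times in cluster 6. Il34, the other ligand of CSF1R, ranged from RPKM 1.5 in cluster 6 to 9.12 in cluster 3.

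Tek, the gene of TIE2, was highest in cluster 1 (RPKM 5.31, from 606 counts) and lowest in cluster 6 (0.33). The 7 endothelial markers were compared among the sorted libraries by total count. Esam (RPKM 5.79), Kdr (1.49) and Emcn (1.02) were likewise highest in cluster 1 and lowest in cluster 6. Pecam1 (3.84), Cdh5 (2.48) and Egfl7 (3.98) were highest in cluster 5, and Stab2 (0.45) in cluster 4. With TMM, Esam, Kdr and Emcn were instead highest in cluster 5 of the sorted libraries, while Tek stayed highest in cluster 1 (4.81). The part of these markers in the Tek level was not tested. Angpt1 exceeded Tek 4.02 times in cluster 4 and was below it in clusters 1 and 3 (ratios 0.87 and 0.43). Angpt2, the antagonist in most settings, had RPKM 0.51 in cluster 2 to 3.40 in cluster 4, and was above Angpt1 in clusters 3 and 6.

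**Figure D4:**
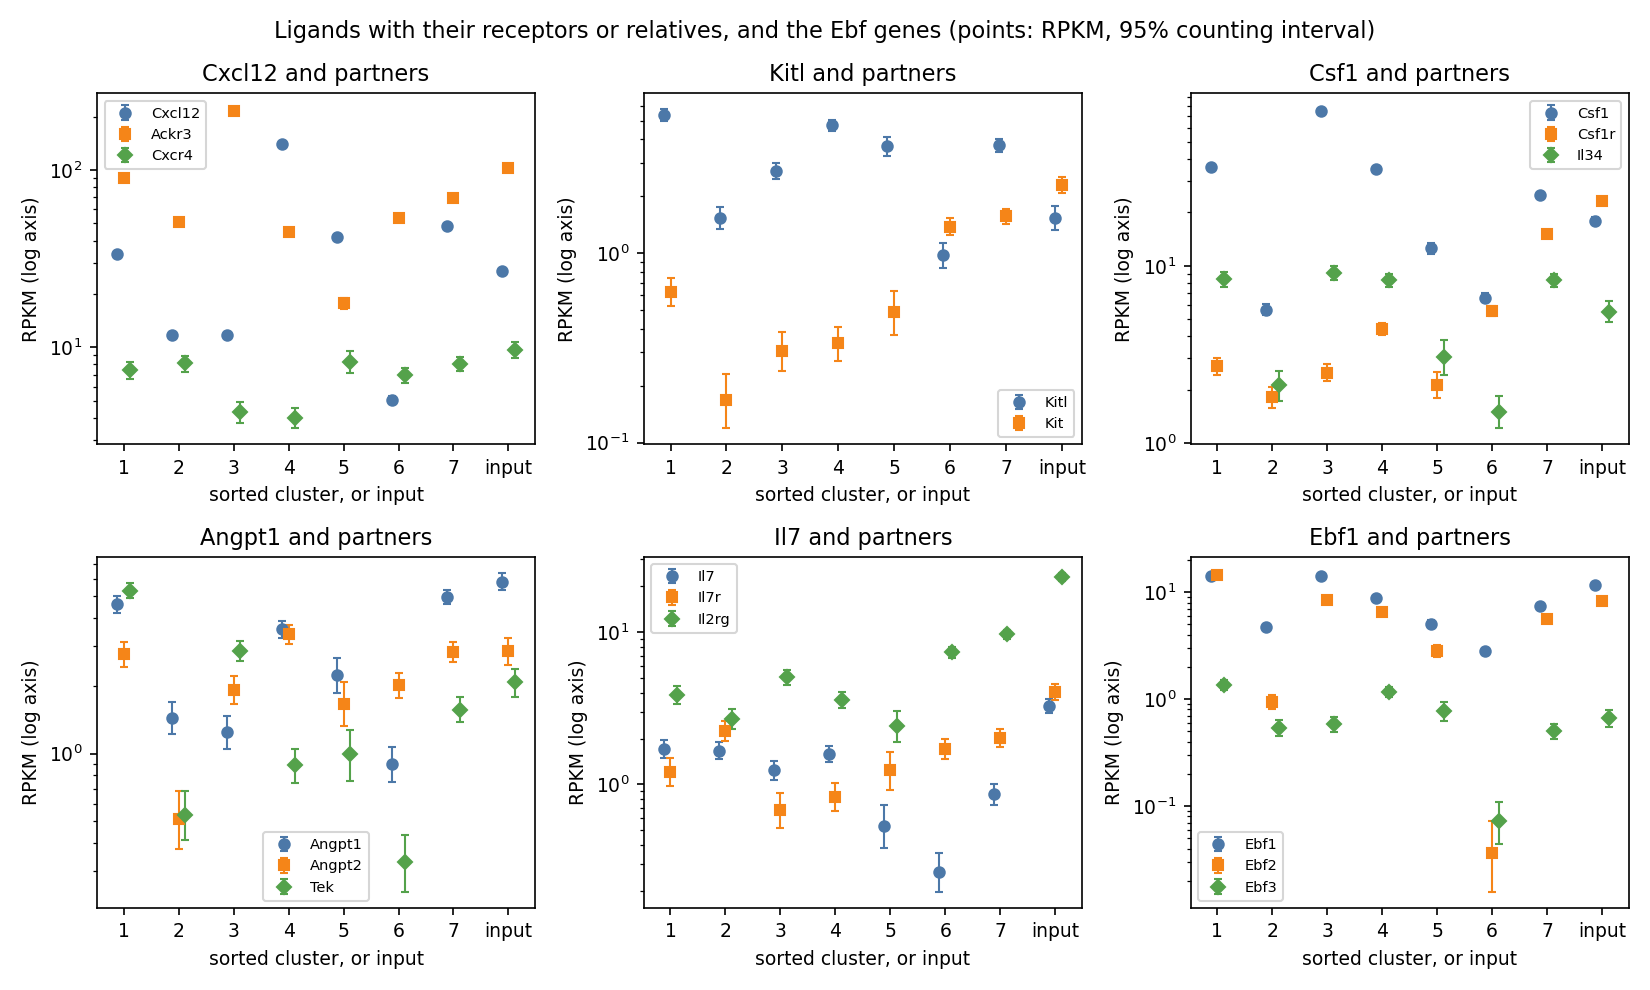
RPKM (log axis) of ligands with their receptors or relatives, and of 3 Ebf genes, in sorted clusters 1 to 7 and the input, with exact Poisson 95% intervals. Ackr3 is highest in cluster 3 (217), where Cxcl12 is low (11.7), and Ebf2 and Ebf3 are near 0 in cluster 6.

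Of 5 leptin signalling genes, 4 passed RPKM 2 and all 4 spanned more than 2-fold (median log2 range 1.34). Socs3, the feedback inhibitor of the receptor, had RPKM 431 in cluster 7 and 336 in cluster 4, the libraries highest in Lepr, and 329 in cluster 1, where Lepr was low; it was lowest in cluster 5 (111). Stat3, which transmits the signal, had its highest RPKM in the same clusters 4 and 7 (46.5 and 45.9), with cluster 6 level with cluster 7 by TMM (both 44.4). Jak2, the kinase bound to the receptor, was instead highest in cluster 6 (RPKM 17.6), where Lepr was low, followed by cluster 7 (15.4) and cluster 4 (14.4). Lep, the ligand gene of fat cells, had 400 counts in the input (RPKM 5.91) and at most 7 counts in a sorted library.

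All 6 proteases of the shedding list spanned more than 2-fold (median log2 range 2.17). Dpp4, which inactivates CXCL12, was highest in cluster 3 (RPKM 20.9) and had RPKM 1.08 in cluster 4. Mmp9, known to release soluble KIT ligand, was highest in cluster 7 (RPKM 130) and cluster 4 (84.4). Elane, a neutrophil elastase that cleaves CXCL12, ranged from RPKM 94.2 in cluster 1 to 478 in cluster 7 and 776 in the input (479 in cluster 6 and 461 in cluster 7 with TMM), and the neutrophil gene S100a8 was present in all these libraries.

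Of 15 other niche ligands and adhesion genes, 13 passed RPKM 2, and all 13 spanned more than 2-fold (median log2 range 2.0). Il6 had RPKM 190 in cluster 4, 137 in cluster 7 and 5.05 in cluster 6. Cxcl14, a chemokine of reticular stromal cells, was highest in the same clusters 4 and 7 (174 and 118) and lowest in cluster 3 (9.96). Vcam1, which anchors progenitors, had RPKM 26.7 in cluster 7, 26.0 in cluster 4 and 3.19 in cluster 6; with TMM cluster 4 was highest and cluster 2 lowest. Spp1, osteopontin of the bone matrix, was highest in cluster 6 (RPKM 2681), followed by clusters 4 (1313) and 7 (1298), and lowest in cluster 1 (194). Thpo had at most 24 counts in a sorted library, and Flt3l was listed at 0 counts in all 8 libraries.

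Of 10 other stromal transcription factor genes, 9 passed the filter and 8 of them spanned more than 2-fold (median log2 range 1.37). Ebf2, another gene of the EBF family, had RPKM 14.5, 0.94, 8.39, 6.5, 2.81, 0.036 (8 counts in cluster 6) and 5.64 from cluster 1 to cluster 7. Ebf1, Ebf2 and Ebf3 were thus all highest in cluster 1 and lowest in cluster 6 by total count; with TMM Ebf1 was highest in cluster 3. Ebf4 differed in its lowest library, cluster 3 (RPKM 0.19), and had 0.37 in cluster 6. It was highest in cluster 4 (1.07) and cluster 1 (1.06), whose intervals overlapped. Ebf1 was 76.5 times Ebf2 in cluster 6 and 0.98 times in cluster 1. Foxc2, like Foxc1, was lowest in cluster 1 among the sorted libraries (RPKM 2.73), with 1.04 in the input. It was highest in cluster 4 (7.64; with TMM, cluster 6) and had 6.96 in cluster 6, but 4.20 in cluster 2, the library highest in Foxc1. Runx2, the factor of osteoblast commitment, was highest in cluster 2 (11.1), the library highest in Foxc1. Cluster 1 was its lowest sorted library (2.05), with 2.04 in the input.

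The likeness of the 9 genes was described by Pearson's r of log2(RPKM + 1) over the 7 sorted libraries, which share one scaling. All 28 pairs without Foxc1 had r above 0, with a median of 0.59 and a range of 0.05 to 0.92. Over the variable genes compared, 59.8% (for Cxcl12) to 79.3% (for Il7) had r above 0 with a member. With TMM the median was 0.53 and 1 pair fell below 0. Csf1 and Ebf1 were most alike (r = 0.92; 0.89 to 0.95 on leaving out 1 library), followed by Kitl and Ebf3 (0.89) and by Cxcl12 and Kitl (0.86; 0.75 to 0.93). Cxcl12 had r = 0.80 with Angpt1 and 0.76 with Lepr. Lepr and Il7 were least alike of these pairs (0.05). On leaving out 1 library, r of some of the 28 pairs fell below 0, down to -0.27 for Lepr and Il7. The median r of the 28 pairs was 0.41 without cluster 6 and 0.76 without cluster 3.

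Foxc1 had r below 0 with 6 of the other 8 genes, down to -0.62 with Kitl, with a median of -0.33, while 63.0% of the variable genes had r above 0 with Foxc1. The median was -0.60 with TMM, when 7 of 8 were below 0, and turned to 0.56 in TPM. For comparison, the median r of a member with the 7446 or 7447 variable genes compared was lowest for Cxcl12 (0.10) and Foxc1 (0.13). It was 0.18 for Kitl and for Ebf3, 0.20 for Lepr, 0.28 for Csf1, 0.30 for Angpt1, 0.35 for Ebf1 and 0.39 for Il7.

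**Figure D5:**
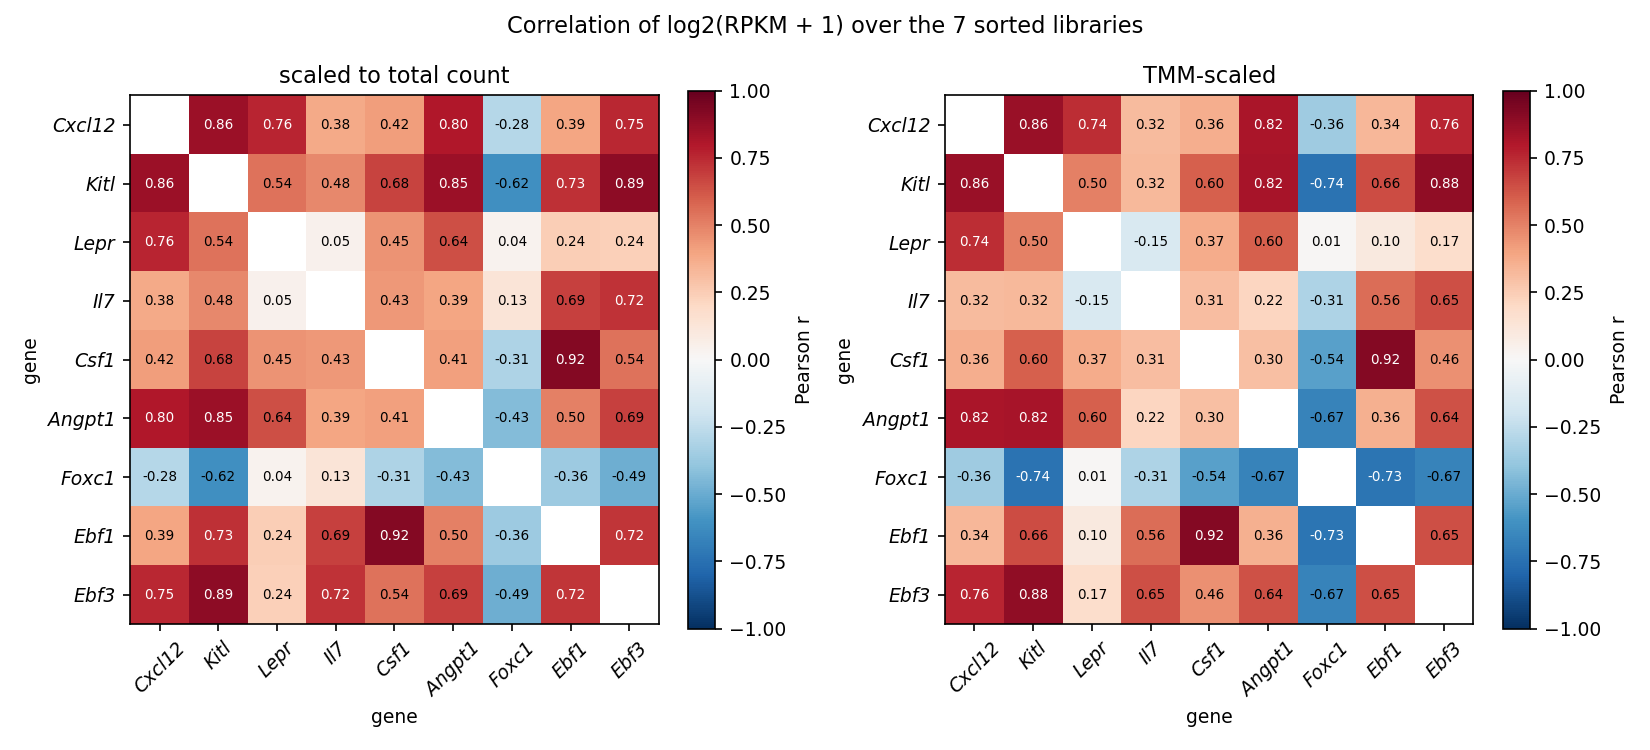
Pearson r of log2(RPKM + 1) over the 7 sorted libraries for each pair of the 9 genes, scaled to the total count on the left and by TMM on the right, from -1 (blue) to 1 (red). Foxc1 is the row that is mostly blue, and Csf1 with Ebf1 has the highest value (0.92).

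For each of the 7 members past the filter, the 3 most similar genes were taken by the same r among variable genes. For Cxcl12 they were Cfb (r = 0.989), Serinc2 and Gm2002. Cfb, complement factor B, had RPKM 20.2 in cluster 4, 11.4 in cluster 7 and 0.36 in cluster 6. For Lepr they were Pcdhb9, Susd3 and Angptl4, an inhibitor of lipoprotein lipase with RPKM 85.9 in cluster 4 and 64.1 in cluster 7. For Csf1 they were Has1 (r = 0.985), Ndrg1 and Fam46b. Has1, a hyaluronan synthase, had RPKM 1621 in cluster 3 and 96.9 in cluster 2.

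For Angpt1 the most similar genes were Fgf10 (r = 0.996), Prrg3 and Nudt4, and for Kitl they were Nmi, Zfp772 and Plekha4. Fgf10, a growth factor gene, was at RPKM 2.49 in cluster 1, 2.35 in cluster 7 and 0.021 in cluster 6. For Ebf1 they were Fbn1 (r = 0.994), Fgf16 and Tmod2. Fbn1, the gene of fibrillin-1 in elastic microfibrils, had RPKM 72.8 in cluster 3, 66.0 in cluster 1 and 3.84 in cluster 6. For Foxc1 they were Timp1 (r = 0.954), Fibin and Spaca1, and Timp1, an inhibitor of matrix metalloproteinases, was highest in cluster 2 (RPKM 837). Other genes also had high r over so few libraries: 1.42% of the genes compared had r above 0.9 with Cxcl12, 3.95% with Ebf1 and 0.175% with Foxc1.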

How the data were processed

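RNA-seq of 7 sorted populations and 1 input library was analysed, each with 1 library. The deposited files hold whole-number counts per Ensembl gene with exon lengths. The authors mapped the reads with TopHat2 in the Partek software (version 2.2 in the submitters' processing notes) and counted them per gene. The study's methods name mm9, but the coordinates in the deposited files are those of GRCm38, and the counter and its use of strand are not given in the sources used here.

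RPKM was computed from the counts, the exon length and the total count, as the study's methods do. Intervals are exact Poisson intervals for a level, and exact conditional binomial (Clopper-Pearson) intervals for a ratio, at 95%. Reads carry no molecular identifiers, so intervals cover counting error only, and a count of 3 is the floor. Thresholds were RPKM above 2 and a fold above 2 in RPKM + 1. Symbols were found for 32465 of the 49315 genes; Ackr3 was matched through its older symbol Cxcr7. TMM factors came from edgeR 4.0.16 and size factors from DESeq2 1.42.0 in R 4.3.3; no test was run with them. Other values were computed in Python 3.11.15 (numpy 2.4.6, scipy 1.17.1). Only the call of a gene specific to 1 library was run on simulated counts. Of 200 genes raised 4-fold in 1 of 7 libraries, all 200 were recovered, with 12 other calls among 49315 genes. The simulation used Poisson counts from one profile shared by all libraries, without biological spread or abundant loci that differ between libraries. It therefore does not show how calls near 2-fold, or the other calls, perform on these libraries.

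The 9 members, the lists, the marker lists and the comparisons were chosen with earlier results of these data known. Named were the members, the genes of the lists, the sorting antigens, the 3 abundant loci, and the 3 genes most like each member past RPKM 2, among genes with a symbol, more than 2-fold in RPKM + 1 between libraries and at least 50 counts in the highest library. One marker of the B lineage list is not reported here and was left out of its sum.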

Additional observations from a re-analysis of the deposited data

How the results depend on the processing

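The counts of members, the levels of Cxcl12 in cluster 4 and Csf1 in cluster 3, the ratios between a member's highest, next and lowest libraries and the correlations were recomputed with TMM factors, with DESeq2 size factors, in TPM, with totals that leave out 3 abundant loci or the mitochondrial and haemoglobin genes, at equal depth, and, where they apply, with other filters and pseudocounts (the latter not for members lowest in cluster 6, which uses none). The levels of the other members and listed genes were recomputed with TMM only. No paired analysis was possible because there was a single library of each kind. The number of members above 2-fold between the highest and lowest library stayed within 1.5 times of 6 under each of these and without cluster 5. The number specific to 1 library was 1 at equal depth and otherwise within that limit. Higher calls against the input numbered 11, with 18 by TMM and 17 by DESeq2 size factors, and lower calls numbered 18, with 4 by either. The highest library of a member was unchanged for 5 of 9 by TMM and for 5 by DESeq2 size factors. In TPM the lowest library changed for 7 of 9 members, and the highest over the lowest library moved by over 1.5 times for 6: Lepr (13.2), Il7 (14.4), Csf1 (27.4), Angpt1 (11.02), Ebf1 (12.7) and Foxc1 (7.51); under the other scalings no lowest library changed and no such ratio moved that far. Members lowest in cluster 6, a count added after seeing the data, numbered 2 of 9 in TPM (Cxcl12 and Ebf3) instead of 4 of 7. Cxcl12 in cluster 4 was RPKM 143 with TMM, and 353 in TPM, another unit; Csf1 in cluster 3 was 191 in TPM. The median r among members other than Foxc1 was 0.79 in TPM, and 0.41 to 0.76 on leaving out 1 library. The median r of Foxc1 with the other members was -0.60 with TMM, -0.57 with DESeq2 size factors, 0.56 in TPM, -0.45 without the 3 loci and -0.52 without cluster 5, and -0.47 to -0.18 on leaving out another library; r of Cxcl12 and Foxc1 was 0.32 in TPM. The 3 loci took 78% of TPM in cluster 5 and 54.6% in cluster 2, the lowest sorted library of Kitl in TPM. The causes of the other shifts were not tested. Low counts limit the precision of Ebf3 and Il7 in clusters 5 and 6, at 21 to 91 counts.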
